A study of Mus musculus with 28 samples.

Results

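Glutathione transferases join the tripeptide glutathione to reactive compounds. The genes described here are 10 members named by symbol, 7 that encode cytosolic enzymes (Gsta1, Gsta4, Gstm1, Gstm3, Gstp1, Gstt1 and Gsto1) and 3 that encode membrane-bound ones (Mgst1, Mgst2 and Mgst3). Each matched 1 gene of the 54354 in the deposited table, and all 10 passed the low-count filter that left 12495 genes for testing. The libraries came from mice with the genotype Lgr5-GFP, a reporter of the crypt stem cell receptor gene Lgr5, and the labels give no further allele. Small intestinal cells had been separated into Lgr5-high and Lgr5-low populations, and each population was taken on a control diet and on a cystine diet, which makes 4 groups of 7 RNA sequencing libraries. Every group shares the reporter genotype, so none is a wild-type control. The sources used here do not state the age of the mice, the cystine dose, the duration of feeding or the sort gates. By the series' overall design the cells came from small intestine, but organoids are what the extraction protocol names as the RNA source. No label ties a library to an animal, so p-values measure the spread between libraries, which may be technical.

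Conjugation by a glutathione transferase makes an electrophile more soluble and marks it for export and for breakdown to a mercapturate. Cytosolic transferases fall into classes named alpha, mu, pi, theta and omega, and several classes are clusters of closely related genes. The membrane-bound enzymes belong to a separate protein family that also holds leukotriene C4 synthase. Enterocytes, which meet ingested compounds first, are known to carry high amounts of the alpha class. Cysteine, which cystine yields on reduction, is a building block of glutathione, the cosubstrate of all these enzymes. Several transferase genes are known targets of the transcription factor NRF2, the product of Nfe2l2.

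Sequence likeness bears on how well reads can be assigned to each gene, so the first 120 bases of the coding sequence are shown for the alpha, mu and pi members with close relatives. All coordinates are those of GENCODE M21 on GRCm38, the assembly also named mm10. Gsta1 lies at chr9:78230656-78242684 on the plus strand, next to the predicted gene Gm3776 at chr9:78257129-78269166, whose coding sequence of 672 bases differs from that of Gsta1 at 2 positions. Gsta4 lies in the same cluster at chr9:78182774-78209349 on the plus strand. Capitals mark bases that differ from the Gsta1 line, read position by position without gaps.
Gsta1: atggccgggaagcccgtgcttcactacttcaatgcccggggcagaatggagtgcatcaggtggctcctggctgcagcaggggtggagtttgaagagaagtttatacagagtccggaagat
Gm3776: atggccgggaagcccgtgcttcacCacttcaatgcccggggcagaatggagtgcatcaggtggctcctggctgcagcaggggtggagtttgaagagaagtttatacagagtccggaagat
Gsta4: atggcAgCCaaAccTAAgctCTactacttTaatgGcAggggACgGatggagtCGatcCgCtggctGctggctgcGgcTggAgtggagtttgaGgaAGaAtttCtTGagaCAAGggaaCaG

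In the printed stretch Gm3776 differed from Gsta1 at 1 base and Gsta4 at 36. Of the 31-base words in the annotated transcripts of Gsta1, 92.9% also occurred in transcripts of another gene, against 0.0% for Gsta4. The deposited counts gave Gsta1 92.4% of the reads assigned to Gsta1, Gm3776, Gsta2 and Gsta5 together and Gm3776 7.45%. These shares rest on how the quantifier divided reads, so the level of Gsta1 is uncertain to that extent. With the counts of the 4 genes added up, its log2 fold changes between populations were -0.82 on control diet and -1.33 on cystine diet, against -0.82 and -1.30 for Gsta1 alone.

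The mu members lie on chromosome 3 on the minus strand, Gstm1 at chr3:108012255-108017973 and Gstm3 at chr3:107963696-107969283. In the lines that follow, capitals mark bases of Gstm3 that differ from Gstm1, 18 in this stretch.
Gstm1: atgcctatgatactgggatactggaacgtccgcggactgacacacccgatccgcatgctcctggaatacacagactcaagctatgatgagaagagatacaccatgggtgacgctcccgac
Gstm3: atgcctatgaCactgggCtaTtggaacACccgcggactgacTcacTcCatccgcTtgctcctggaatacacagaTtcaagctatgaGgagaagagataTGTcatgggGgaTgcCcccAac

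Words shared with other genes made up 28.8% of those of Gstm1 and 37.7% of those of Gstm3. The pi member Gstp1 lies at chr19:4035407-4037985 on the minus strand, and its neighbour Gstp2 at chr19:4040285-4046023 has a coding sequence of the same length, 633 bases, that is 98.1% identical. Capitals mark the 6 bases of Gstp2 that differ from Gstp1 here.
Gstp1: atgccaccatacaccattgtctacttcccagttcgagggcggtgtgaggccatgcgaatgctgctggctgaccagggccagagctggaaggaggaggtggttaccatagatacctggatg
Gstp2: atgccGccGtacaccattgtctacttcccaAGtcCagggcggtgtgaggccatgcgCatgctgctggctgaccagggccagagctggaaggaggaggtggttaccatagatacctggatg

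Gstp1 shared 38.5% of its words, yet Gstp2 received 2.18% of the counts assigned to Gstp1, Gstp2 and the pseudogene Gstp-ps together. The other members stand apart from their relatives. Shared words made up 2.61% for Mgst2, 1.31% for Mgst3 and 0.468% for Gstt1, and were at 0.0% for Gsto1 and Mgst1. Gstt1 lies at chr10:75783813-75798584 on the minus strand and Gsto1 at chr19:47854970-47864790 on the plus strand. Mgst1 lies at chr6:138140316-138156755 and Mgst2 at chr3:51660360-51682677, both on the plus strand, and Mgst3 at chr1:167371966-167393841 on the minus strand.

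RefSeq promoter windows of GRCm38.p6 were at hand for 9 of the 10 members and not for Gsta4. The core letters of the antioxidant response element, TGACNNNGC on either strand, occurred in the window of 1 member, Mgst1, and in 11.5% of all genes with a window. The core of the xenobiotic response element, GCGTG on either strand, occurred in 3 members, Gstm1, Gstp1 and Mgst3, and in 30.9% of all genes. Only the part of each window before the transcription start was searched, so elements further upstream or within the gene would be missed. A match describes letters and not a bound site.

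Total counts ranged from 2.75 to 21.5 M per library, and 7 libraries had under 5 M. The lowest count of a member in any library was 33, for Gsta4, so all 10 members were detected in all 28 libraries. Levels are given as CPM, each count taken as a share of its library's total after TMM scaling. The populations carried the markers of their labels: summed levels of 12 stem cell marker genes were 3562 to 7276 CPM in Lgr5-high control and 4021 to 7701 in Lgr5-high cystine libraries, against 741 to 2800 and 1037 to 2394 in Lgr5-low control and cystine libraries. Markers of other cells were present in every group. The 7 Paneth cell markers had the largest median sums, 78629 CPM in Lgr5-high control, 72352 in Lgr5-high cystine, 42035 in Lgr5-low control and 69199 in Lgr5-low cystine libraries. Their sum ranged widely within groups, from 19193 to 151477 CPM in Lgr5-high control libraries. The 8 goblet cell markers summed to medians of 13933 CPM in Lgr5-high control, 14332 in Lgr5-high cystine, 28517 in Lgr5-low control and 28543 in Lgr5-low cystine libraries. The 14 macrophage and Kupffer cell markers had a median sum of 414 CPM in Lgr5-high cystine libraries and of 50.1, 28.9 and 47.6 in Lgr5-high control, Lgr5-low control and Lgr5-low cystine libraries.

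A further division of the libraries, not given by the labels, runs through all results. Xist, the transcript that silences an X chromosome, exceeded 50 CPM in 18 libraries and not in the other 10. The Xist-low class held replicates 1 to 3 of both control groups and replicates 1 and 2 of both cystine groups, so the class and the replicate number cannot be told apart. Each comparison was therefore also made with a class term and, added after the data were seen, within each class.

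Levels of the members were compared with each other per length of annotated exon. Mgst3 stood highest at a mean of 1585 ± 670 CPM per kb (SD, n = 28). Gstp1 (454 ± 113) and Mgst1 (406 ± 107 CPM per kb) followed and did not differ beyond their spread. Gsta1 spread too widely to be placed: its mean of 416 ± 352 CPM per kb overlapped Gstp1 and Mgst1 and, at the low end, Gsto1 and Gstm3. Its group means ran from 207 ± 164 CPM per kb in Lgr5-high cystine to 606 ± 370 in Lgr5-low control libraries (SD, n = 7). The other 6 members ran from Gsto1 at 61.8 ± 12.9 through Gstm3 (53.8 ± 25.6), Mgst2 (42.8 ± 11.4), Gstt1 (36.3 ± 11.2) and Gstm1 (26.7 ± 8.79) to Gsta4 at 22.7 ± 16.2 CPM per kb. Neighbours among these 6 overlapped in their SDs, whereas Mgst1 and Gsto1 did not. With the longest transcript as the length, Gstp1 stood at 856 and Mgst1 at 700 CPM per kb, Gsta1 at 455, and the order of Gsta1 and Mgst1 and that of Gstm3 and Mgst2 were exchanged. Without scaling for length, Mgst3 made up 36.7% ± 2.39 of the summed CPM of the 10 genes in Lgr5-high control libraries and 44.2% ± 1.92 in Lgr5-low control libraries (SD, n = 7). On cystine diet its share was 39.7% ± 2.8 and 44.7% ± 6.08.

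**Figure D1:**
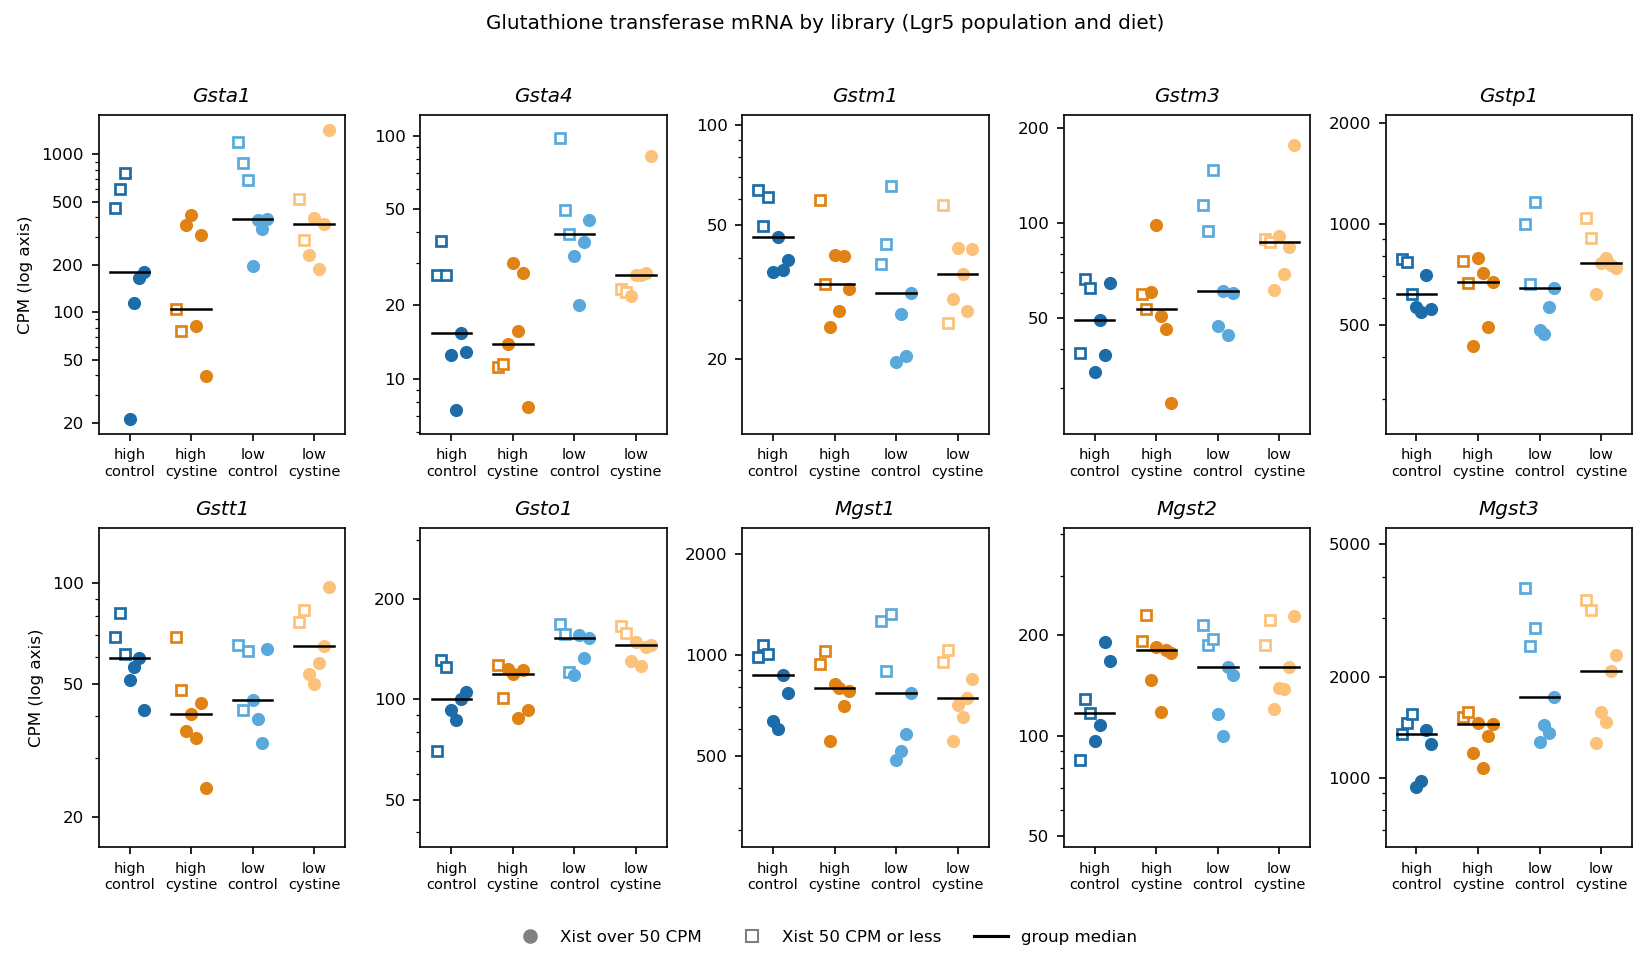
Level of each transferase gene in CPM (log axis) in every library, by population (high, low) and diet. Each point is 1 library, open squares are libraries with Xist at 50 CPM or less and bars are group medians; the 2 groups of each comparison overlap for every gene, and Gsta1 spreads most widely, from 21.2 to 1424 CPM.

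The comparison of populations asked which transferases differ between stem-cell-rich and stem-cell-poor fractions. No member passed the threshold, an adjusted p under 0.05 over all genes tested, in edgeR's quasi-likelihood test with libraries taken as unpaired. On control diet 0 of 10 members passed, with 1.8% of all tested genes past it, and 4 of 10 had an unadjusted p under 0.05 against 12.9% of genes. On cystine diet 0 of 10 passed, with 2.64% of all genes past it, and 5 of 10 had an unadjusted p under 0.05 against 15.5% of genes. DESeq2 called 2 members on control diet, with 3.39% of its tested genes called, and 0 on cystine diet, with 4.75% called. The limma-voom fit called 3 members on control diet, with 6.4% of all genes called, and 2 on cystine diet, with 910 of the 12495 genes called. With same-numbered libraries of a diet taken as pairs, which no label states, edgeR called 3 members on control diet (Gsta4, Gsto1 and Mgst3), with 409 of 12495 genes called. On cystine diet that fit called 2 (Gstt1 and Mgst3), with 453 of 12495 genes called. Log2 fold changes of Lgr5-high against Lgr5-low were negative for 7 of 10 members on control diet (median -0.42, against -0.01 over all genes) and for 8 of 10 on cystine diet (median -0.54, against -0.04). In no member did the 7 libraries of a population lie clear of the other 7, a pattern seen in 0.96% of genes on control diet and 1.3% on cystine diet. In these bulk libraries, fewer cells of a type and less RNA per cell cannot be told apart.

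**Figure D2:**
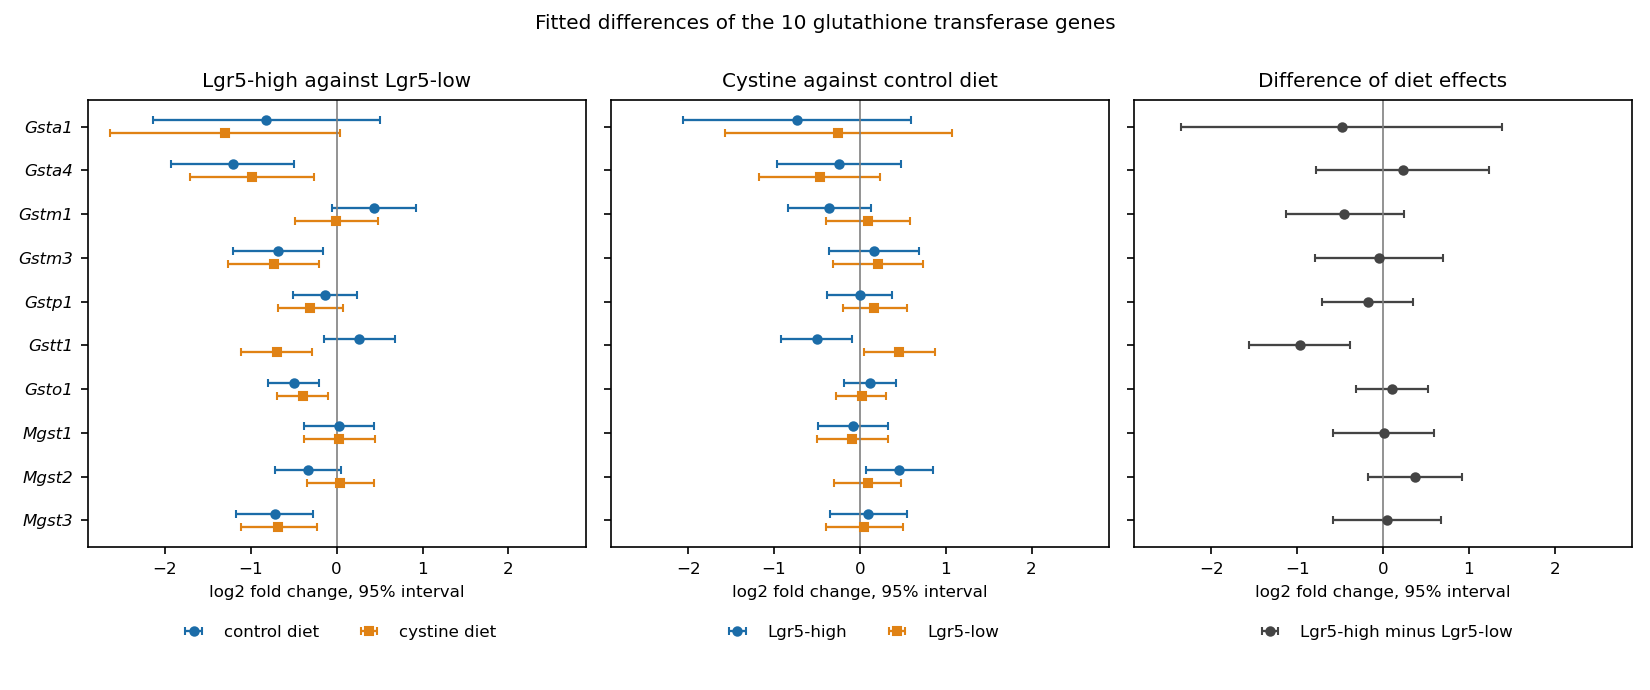
Fitted log2 fold changes (horizontal axis) of the 10 genes with 95% intervals for the population comparison (Lgr5-high against Lgr5-low) by diet, for cystine against control in each population, and for the difference of the diet effects. Gsta4, Gstm3, Gsto1 and Mgst3 lie below 0 on both diets in the population panel, and Gstt1 changes side between the diets.

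Gsta1, the alpha-class member, had the widest spread of all, 67.2-fold from the lowest to the highest library. Lgr5-high control libraries ranged from 21.2 to 759 CPM (median 181) and Lgr5-low control libraries from 197 to 1189 (median 388). On cystine diet the ranges were 39.5 to 414 (median 105) and 189 to 1424 (median 364). The populations overlapped on both diets, with 4 of 7 Lgr5-high libraries below every Lgr5-low library on each. The log2 fold change was -0.82 ± 0.64 (SE, adjusted p = 0.675) on control diet and -1.30 ± 0.65 (adjusted p = 0.342) on cystine diet. Without Lgr5-low cystine replicate 7, which held 1424 CPM, the latter was -0.75 (adjusted p = 0.7), and without Lgr5-low control replicate 1 the former was -0.52 (adjusted p = 0.834).

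Gsta4 encodes an alpha-class enzyme known for conjugating 4-hydroxynonenal, a product of lipid peroxidation. Lgr5-high control libraries ranged from 7.4 to 36.7 CPM (median 15.4) and Lgr5-low control libraries from 20.1 to 97.4 (median 39.5). All 7 Lgr5-high control libraries lay below the Lgr5-low median and 4 below every Lgr5-low library. The log2 fold change was -1.21 ± 0.35 (SE, adjusted p = 0.0658), a level of 0.432 times that of Lgr5-low. On cystine diet the ranges were 7.64 to 29.8 (median 13.9) and 21.9 to 82.4 CPM (median 26.6), and 5 of 7 Lgr5-high libraries lay below every Lgr5-low library. There the log2 fold change was -0.99 ± 0.36 (adjusted p = 0.138). Gsta4 thus measured lower in Lgr5-high cells on both diets but missed the threshold. On control diet it passed with DESeq2 (adjusted p = 0.039), with limma-voom (0.0243), with the class term (0.0453), and in edgeR without Lgr5-high control replicate 2 (0.0329) or Lgr5-low control replicate 5 (0.042). Without Lgr5-low control replicate 1 the control-diet value was -0.89 (adjusted p = 0.235), and without Lgr5-low cystine replicate 7 the cystine-diet value was -0.57 (adjusted p = 0.496).

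The libraries with the highest and lowest levels of the alpha members also stood at or near the ends of the range of enterocyte markers. Without Fabp1, the most abundant of them, the other 11 enterocyte markers summed to 823 CPM in Lgr5-high control replicate 4, the lowest of the 28 libraries, and this library also held the lowest Gsta1, 21.2 CPM. The highest sum, 6127 CPM, was that of Lgr5-low cystine replicate 7, which held the highest Gsta1, 1424 CPM, and the second highest Gsta4, 82.4 CPM. Lgr5-low control replicate 1 had the next highest sum, 3901 CPM, with 1189 CPM of Gsta1 and the highest Gsta4, 97.4 CPM. The levels did not follow the sums throughout. Lgr5-low control replicate 7, at a sum of 3739 CPM, held 388 CPM of Gsta1 and 45.0 CPM of Gsta4. Lgr5-low control replicate 3, at a lower sum of 2584 CPM, held 684 CPM of Gsta1. With Fabp1 included, replicate 7 had a higher sum than replicate 1 in that group, 21346 against 19063 CPM. All 12 enterocyte markers had negative log2 fold changes for Lgr5-high against Lgr5-low on both diets (medians -0.88 and -0.95), of which 0 passed on control diet and 1 on cystine diet. Their part in the values of Gsta1 and Gsta4 was not tested. Nearest genes were ranked by the root mean square difference of centred log2 CPM over the 28 libraries. Predicted genes, the close relative Gm3776 among them, were left out of this ranking. Of the genes ranked, the nearest to Gsta1 were Apoa4 (0.58), Enpp3 (0.60) and Rbp2 (0.60), against a spread of 1.39 for Gsta1 itself. Apoa4 is also 1 of the 11 enterocyte markers summed above. Nearest to Gsta4 were Adh6a (0.34), Cgref1 (0.45) and Tm6sf2 (0.46), against its own spread of 0.88.

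**Figure D3:**
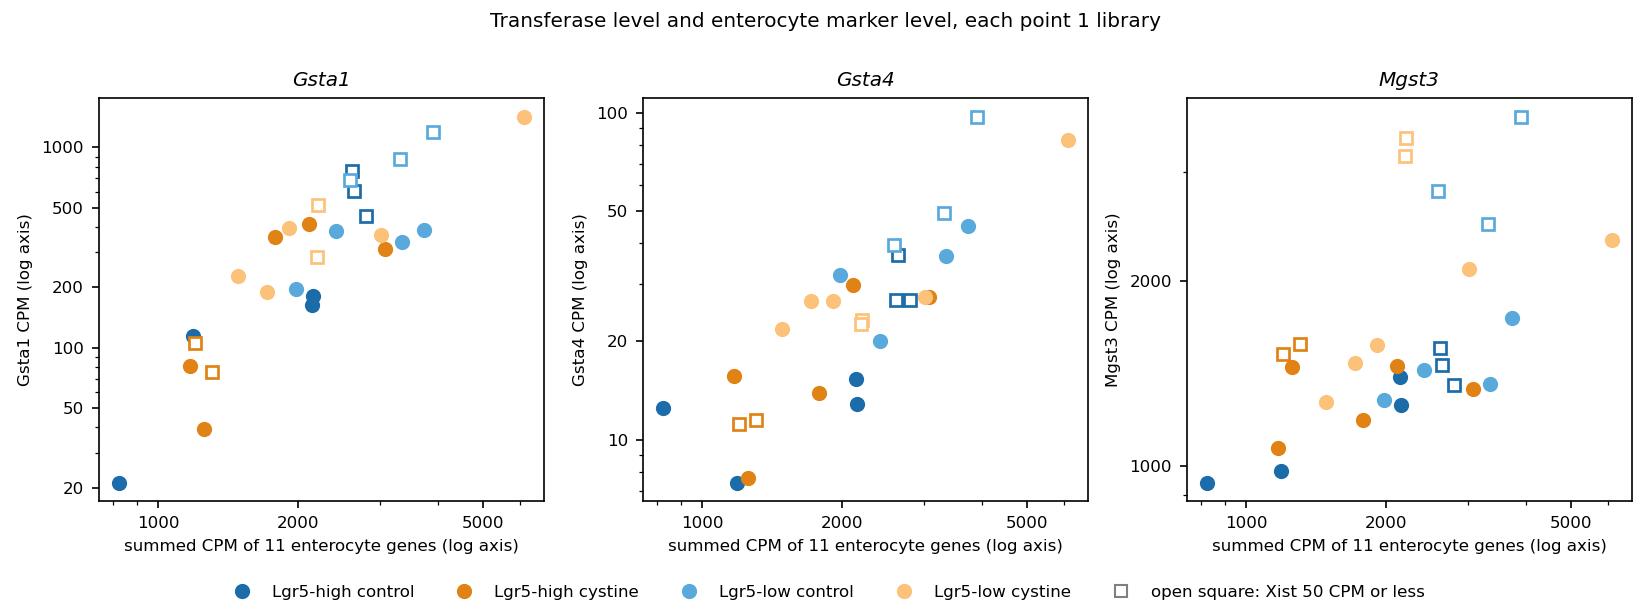
Levels of Gsta1, Gsta4 and Mgst3 (vertical, CPM, log axis) against the summed CPM of 11 enterocyte marker genes without Fabp1 (horizontal, log axis), each point 1 library. Libraries with low sums, down to 823 CPM, hold the lowest Gsta1, and the library with the sum of 6127 CPM holds the highest, while Mgst3 separates the open squares of the Lgr5-low groups from the filled points at like sums.

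The mu members lay on different sides of 0 on control diet. Gstm3 ranged from 33.7 to 66.5 CPM (median 49.4) in Lgr5-high control and from 44.2 to 147 (median 61.1) in Lgr5-low control libraries. On cystine diet it ranged from 26.9 to 98.7 (median 53.4) and from 61.2 to 176 (median 87.0), with 6 of 7 Lgr5-high libraries below every Lgr5-low library. Its log2 fold change was -0.68 ± 0.26 (SE, adjusted p = 0.204) on control and -0.73 ± 0.26 (adjusted p = 0.134) on cystine diet, the latter past the threshold without Lgr5-high cystine replicate 4 (-0.95, adjusted p = 0.0407). Gstm1 lay on the other side on control diet, at 36.2 to 63.8 CPM (median 46.2) in Lgr5-high and 19.5 to 65.4 (median 31.4) in Lgr5-low libraries. All 7 Lgr5-high libraries exceeded the Lgr5-low median, with a log2 fold change of 0.44 ± 0.24 (adjusted p = 0.46 in edgeR and 0.0267 in limma-voom). On cystine diet Gstm1 was alike in both, 37.0 ± 11.6 and 37.4 ± 11.2 CPM (SD, n = 7), a log2 fold change of -0.01 with a 95% interval of -0.49 to 0.48.

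Gstp1 encodes the pi-class enzyme. It was abundant and close in all groups, at 650 ± 103, 647 ± 137, 712 ± 266 and 802 ± 135 CPM (SD, n = 7) in Lgr5-high control, Lgr5-high cystine, Lgr5-low control and Lgr5-low cystine libraries. The log2 fold changes between populations were -0.13 (95% interval -0.51 to 0.24) on control and -0.31 (-0.68 to 0.07) on cystine diet. With Gstp2 and Gstp-ps added they were -0.16 and -0.31.

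Gsto1, of the omega class, encodes an enzyme with thioltransferase and dehydroascorbate reductase activity. Lgr5-high control libraries ranged from 70.1 to 131 CPM (mean 101 ± 21.3, SD, n = 7) and Lgr5-low control libraries from 118 to 168 (144 ± 19.4). On cystine diet the ranges were 87.8 to 127 (median 119) and 126 to 166 (median 145). On each diet all 7 Lgr5-high libraries lay below the Lgr5-low median, and 5 of 7 on control and 6 of 7 on cystine diet lay below every Lgr5-low library. These were the smallest fold changes among the members with an unadjusted p under 0.05, -0.50 ± 0.15 (SE, adjusted p = 0.0666) and -0.39 ± 0.15 (adjusted p = 0.151). On control diet Gsto1 passed with DESeq2 (adjusted p = 0.0157), limma-voom (0.0377) and the class term (0.0227), and in edgeR without Lgr5-low control replicate 3 (0.0383) or Lgr5-high control replicate 2 (0.0447). On cystine diet it passed with limma-voom (0.0374). Of 23 changes to tool, filter, size factors, libraries or model terms, 6 called Gsto1 on control diet (highest adjusted p = 0.286). On cystine diet 1 of the 23 did (highest 0.256). Fits within a class were not counted.

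Gstt1 belongs to the theta class, known for acting on small halogenated compounds and epoxides. Its population difference lay on opposite sides of 0 on the 2 diets. On control diet the ranges were 41.8 to 81.6 CPM (median 59.6) in Lgr5-high and 33.2 to 65.5 (median 44.9) in Lgr5-low libraries, and the log2 fold change was 0.26 ± 0.21 (SE, adjusted p = 0.665). On cystine diet they were 24.4 to 69.0 (median 40.6) and 50.1 to 97.6 (median 64.9), with 6 of 7 Lgr5-high libraries below every Lgr5-low library. There the log2 fold change was -0.70 ± 0.21 (adjusted p = 0.0545), nearest to the threshold of all members. It passed with limma-voom (adjusted p = 0.0184) and the class term (0.00964), and in edgeR without Lgr5-high cystine replicate 1 (0.0142), Lgr5-low cystine replicate 3 (0.0493) or Lgr5-low cystine replicate 4 (0.0468). DESeq2 did not call Gstt1 on cystine diet. Of the 23 changes counted for Gsto1, 6 called Gstt1 on cystine diet (highest adjusted p = 0.177).

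Among the membrane-bound enzymes, Mgst3 alone had an unadjusted p under 0.05 between populations. Mgst3 ranged from 941 to 1555 CPM (median 1355) in Lgr5-high control and from 1280 to 3693 (median 1741) in Lgr5-low control libraries. On cystine diet it ranged from 1071 to 1578 (median 1448) and from 1274 to 3414 (median 2094). All 7 Lgr5-high libraries lay below the Lgr5-low median on each diet, with log2 fold changes of -0.72 ± 0.22 (SE, adjusted p = 0.0845) and -0.68 ± 0.22 (adjusted p = 0.0923). It passed with the class term on both diets (adjusted p = 0.00703 and 0.00807), and on control diet in edgeR without Lgr5-low control replicate 4 (0.0482). DESeq2 and limma-voom did not call Mgst3 on either diet. Without Lgr5-low control replicate 1 its control-diet value was -0.52. Of the 23 changes counted for Gsto1, 3 called Mgst3 on control diet (highest adjusted p = 0.279) and 2 on cystine diet (highest 0.351). Mgst1, which encodes an enzyme of the endoplasmic reticulum and mitochondrial membranes, showed no such difference, with means of 849 ± 187 and 832 ± 345 CPM (SD, n = 7) in Lgr5-high and Lgr5-low control libraries and 803 ± 155 and 784 ± 171 on cystine diet. Its log2 fold change was 0.03 on each diet, with 95% intervals of -0.38 to 0.44 and -0.38 to 0.45. Mgst2, whose product can also make leukotriene C4, averaged 127 ± 38.3 against 161 ± 42.0 CPM on control diet (-0.33 ± 0.19, adjusted p = 0.495) and 175 ± 35.4 against 171 ± 42.7 on cystine diet (0.04 ± 0.19, adjusted p = 0.964).

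**Figure D4:**
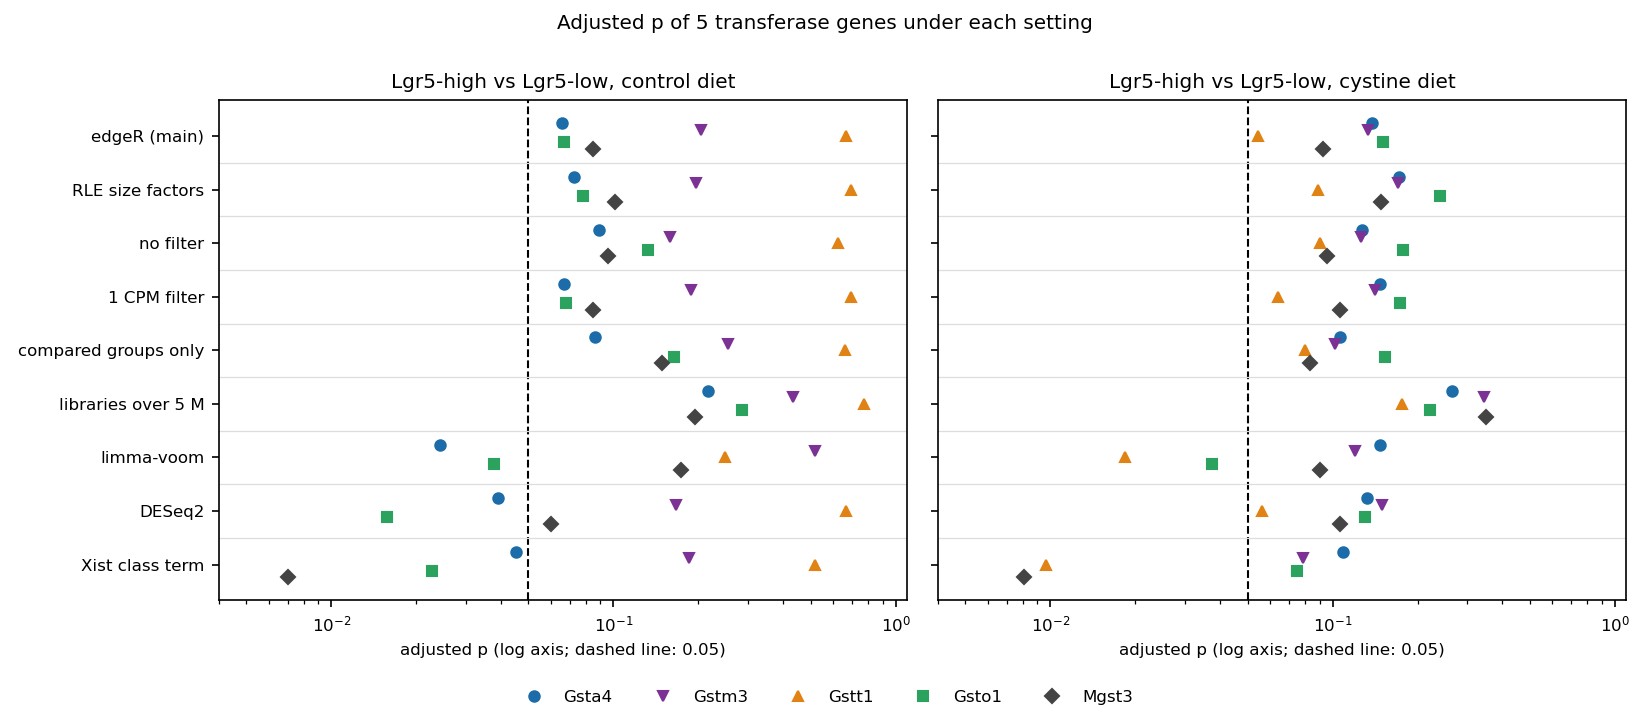
Adjusted p (horizontal, log axis) of the 5 members with an unadjusted p under 0.05 in a population comparison. Rows are the main fit, other tools, size factors, filters and library sets, and the class term, without the replicate block. The dashed line marks 0.05. On control diet Gsta4 and Gsto1 lie to its left with limma-voom, DESeq2 and the class term, and on cystine diet Gstt1 does so with limma-voom and the class term.

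The diet comparisons asked whether added cystine altered these genes. In Lgr5-high cells 0 of 10 members passed, with 0.168% of all tested genes past the threshold, and in Lgr5-low cells 0 of 10 passed, with 0.0% past it. DESeq2 and limma-voom also called 0 members in both. In Lgr5-high cells DESeq2 called 0.705% of its 17454 tested genes and limma-voom 0.312% of 12495. In Lgr5-low cells they called 10 of 14420 and 1 of 12495 genes. No member's 7 cystine libraries lay clear of the 7 control libraries in either population, a pattern seen in 0.216% of genes in Lgr5-high and 0.064% in Lgr5-low cells. An unadjusted p under 0.05 in edgeR was reached by 2 members in Lgr5-high cells, against 535 of the 12495 genes, and by 1 in Lgr5-low cells, against 2.97% of genes. The members' median log2 fold changes were -0.04 and 0.07, against -0.02 and 0.00 over all genes. The 2 members of the Lgr5-high comparison were Gstt1 and Mgst2, which lay on opposite sides of 0. Gstt1 averaged 42.3 ± 14.0 CPM on cystine against 60.2 ± 12.7 on control diet (-0.50 ± 0.21, adjusted p = 0.95), and Mgst2 averaged 175 ± 35.4 against 127 ± 38.3 (0.46 ± 0.19, adjusted p = 0.957). In Lgr5-low cells Gstt1 averaged 69.1 ± 17.4 against 50.1 ± 13.5 CPM (0.46 ± 0.21, adjusted p = 1.0). All 7 Lgr5-low cystine libraries exceeded the control median of Gstt1, whereas 6 of 7 Lgr5-high cystine libraries lay below theirs.

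Intervals at 95% around the diet effects, not adjusted for the number of genes tested, excluded 0 in Lgr5-high cells for Gstt1 (-0.92 to -0.09 on the log2 scale) and Mgst2 (0.07 to 0.85). They included 0 for the other 8 members there, for instance at -0.18 to 0.42 for Gsto1, -0.38 to 0.37 for Gstp1 and -0.49 to 0.33 for Mgst1. For Gsta1 the interval was much wider, -2.06 to 0.59. In Lgr5-low cells the interval excluded 0 for Gstt1 (0.05 to 0.88), and the intervals were -0.28 to 0.31 for Gsto1, -0.20 to 0.55 for Gstp1 and -0.50 to 0.33 for Mgst1, and -1.57 to 1.07 for Gsta1.

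The difference of the diet effects, Lgr5-high minus Lgr5-low, rests on all 4 groups and so shares its libraries with the comparisons above. Of the 10 members 0 passed in edgeR, DESeq2 or limma-voom. Past the threshold were 0.0% of all genes in edgeR, 0 of 23955 in DESeq2 and 5 of 12495 in limma-voom. In edgeR 1 member, Gstt1, had an unadjusted p under 0.05, against 3.32% of genes. For Gstt1 the difference was -0.97 ± 0.29 on the log2 scale (95% interval -1.56 to -0.38, adjusted p = 1.0). Leaving out any library kept it between -1.17 and -0.85. The other members ranged from -0.48 ± 0.90 for Gsta1 to 0.37 ± 0.27 for Mgst2.

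More members passed for the Xist class than for population or diet, but these counts are not alike. The class term sets 10 libraries against 18 over all 4 groups, and each population or diet comparison sets 7 against 7. The class also had more of all tested genes past the threshold, 17.1%. With a class term in the model, 5 of 10 members passed for the class. That model takes the 28 libraries as independent, but same-numbered Lgr5-high and Lgr5-low libraries of a diet share a class. Were they from 1 animal, the SEs and p-values of the class would be too small. In the same model 3 passed between populations on control diet, with 3.6% of all genes past the threshold, 2 on cystine diet, with 4.95%, and 0 for diet in Lgr5-high cells, with 0.328%. All 5 were higher in the Xist-low class, where 17.1% of all tested genes passed in either direction and 8.03% were higher. They were Mgst3 (log2 difference 0.66 ± 0.11 SE, adjusted p = 1.94e-05), Mgst1 (0.62 ± 0.10, 1.08e-05), Gstm1 (0.59 ± 0.15, 0.00367), Gstp1 (0.44 ± 0.10, 0.00158) and Gstt1 (0.44 ± 0.13, 0.0129). The other 5 members had positive differences too, from 0.14 for Gsto1 to 0.88 ± 0.53 for Gsta1 (adjusted p = 0.286), and did not pass. Mgst3 in Lgr5-low control libraries ran from 2476 to 3693 CPM in the 3 Xist-low libraries and from 1280 to 1741 in the 4 Xist-high ones, without overlap. In Lgr5-low cystine libraries it ran from 3187 to 3414 in 2 libraries against 1274 to 2328 in 5. The classes lay closer for Mgst3 in Lgr5-high control libraries, 1355 to 1555 against 941 to 1394 CPM. Within the Xist-low class the population difference of Mgst3 was -1.04 on control diet (3 against 3 libraries, adjusted p = 0.00751) and -1.12 on cystine diet (2 against 2, adjusted p = 0.0133). Within the Xist-high class it was -0.35 (4 against 4, adjusted p = 0.272) and -0.43 (5 against 5, adjusted p = 0.146). Whether these population differences differ between classes was not tested.

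Other marker lists moved with the same class. All 7 Paneth cell markers were lower in the Xist-low class and 7 of 14 hepatocyte markers were higher, while 0 of 12 enterocyte and 0 of 12 stem cell markers passed. Among the other transferase genes 8 of 16 tested were higher in the Xist-low class and 0 lower. Their part in the members' class differences was not tested.

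Gsta1 gave opposite diet values in the 2 classes of Lgr5-high libraries. In the Xist-low class the 3 control libraries held 457 to 759 CPM and the 2 cystine libraries 75.8 to 105, a log2 fold change of -2.76 ± 0.32 (adjusted p = 4.28e-05, with 0.276% of all genes past the threshold in that fit). In the Xist-high class the 4 control libraries held 21.2 to 181 CPM and the 5 cystine libraries 39.5 to 414, a log2 fold change of 1.0 ± 0.78 (adjusted p = 0.942, with 0.291% of all genes past the threshold). The enterocyte markers without Fabp1 summed to 2618 to 2797 CPM in the 3 control and 1199 to 1308 in the 2 cystine libraries of the Xist-low class. Their part was not tested, and the difference between the classes was not tested either. Gsta1 was also called between populations within the Xist-low class on cystine diet (-2.17 ± 0.32, adjusted p = 0.000857), together with Mgst3, where 0.902% of all genes passed. That comparison rests on 2 against 2 libraries. In the main fit over both classes the Gsta1 value was -1.30 ± 0.65 (adjusted p = 0.342). On control diet Mgst3 was the 1 member called within the Xist-low class, from 3 against 3 libraries, with 0.259% of genes. In the Xist-high class the members called between populations were Gsta4 (-1.47, adjusted p = 0.0452) and Gsto1 (-0.55, adjusted p = 0.0272) on control diet, with 4.9% of all genes past the threshold, and Gstt1 (-0.86, adjusted p = 0.0195) on cystine diet, with 3.22%.

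Further transferase genes, from a list that also holds related enzymes, were detected at a wide range of levels. Of 21 listed, 20 were in the table and 16 were tested. Group means ran from 156 to 214 CPM for Gstm5 and from 104 to 126 for Gstm2, both mu genes, and from 104 to 139 for the theta gene Gstt2. Between populations 1 of 16 passed on each diet, both lower in Lgr5-high cells, where 1.8% of all tested genes passed on control and 2.64% on cystine diet. Gstp3, a pi-class gene, measured 1.45 ± 1.09 against 5.91 ± 1.63 CPM on control diet (-1.98 ± 0.50, adjusted p = 0.0253). Ltc4s, leukotriene C4 synthase, measured 5.44 ± 2.77 against 16.5 ± 11.4 CPM on cystine diet (-1.57 ± 0.40, adjusted p = 0.0225). In the diet comparisons 0 of 16 passed in either population.

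Genes that make, use and export glutathione were counted in the same fit, to be read against the same shares of all genes, 1.8% on control and 2.64% on cystine diet. Of 13 tested genes of glutathione synthesis and turnover, 0 passed on control diet and 1 on cystine diet, Slc25a39, the mitochondrial glutathione importer, at 30.4 ± 10.5 against 52.9 ± 16.6 CPM (-0.80 ± 0.21, adjusted p = 0.0311). Medians of this list were -0.38 and -0.52. Of 11 glutathione-using reductases and glyoxalases, 2 passed on each diet. Gpx1, a glutathione peroxidase, was lower in Lgr5-high cells (171 ± 16.6 against 259 ± 44.0 CPM on control diet, -0.60 ± 0.13, adjusted p = 0.0114) and Glrx, a glutaredoxin, was higher (253 ± 51.0 against 147 ± 36.6, 0.78 ± 0.18, adjusted p = 0.0131). On cystine diet their log2 fold changes were -0.56 (adjusted p = 0.0143) and 0.62 (adjusted p = 0.0483). Of 12 genes of conjugate export and mercapturate handling 0 passed on control diet and 1 on cystine diet, Acy1, an aminoacylase, at 24.3 ± 7.16 against 50.6 ± 13.6 CPM (-1.05 ± 0.21, adjusted p = 0.0028).

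The list of NRF2 and its targets outside glutathione metabolism had 14 tested genes, of which 1 passed on control diet and 2 on cystine diet, all lower in Lgr5-high cells, against 1.8% and 2.64% of all genes. Nqo1, a quinone reductase, measured 18.2 ± 7.08 against 39.5 ± 12.0 CPM on control diet (-1.13 ± 0.28, adjusted p = 0.0227) and 18.4 ± 8.07 against 38.0 ± 12.5 on cystine diet (-1.06 ± 0.28, adjusted p = 0.0299). Pgd, an enzyme of the pentose phosphate pathway that yields NADPH, measured 30.4 ± 5.31 against 61.9 ± 10.2 CPM on cystine diet (-1.03 ± 0.18, adjusted p = 0.00105). Among 30 tested xenobiotic sensors and enzymes of phase I and of other phase II reactions, 1 passed on control diet and 3 on cystine diet, against the same 1.8% and 2.64%. Ces1d, a carboxylesterase, was higher in Lgr5-high cells on both diets, at 46.4 ± 9.19 against 15.7 ± 4.71 CPM on control diet (1.57 ± 0.32, adjusted p = 0.00533). Ugt1a7c, a glucuronosyltransferase, measured 152 ± 27.0 against 254 ± 67.1 CPM on cystine diet (-0.74 ± 0.16, adjusted p = 0.00898), and Ces2e, another carboxylesterase, 148 ± 72.9 against 313 ± 148 (-1.08 ± 0.31, adjusted p = 0.0497). In the diet comparisons and in the difference of diet effects 0 genes of these 6 lists passed.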

How the data were processed

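Per the labels' protocols, TRIzol and columns were used to purify the RNA, and a stranded library kit followed selection of poly(A) RNA. The authors deposited estimated counts per gene as whole numbers, made with Salmon 1.3.0 on build mm10, per the submitters' processing notes. Neither the annotation nor how transcripts were summed to genes is stated in these sources. Salmon divides reads among similar transcripts by a model, which touches Gsta1, the mu genes and Gstp1 most.

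Samples were grouped by the population and diet in their titles. No 2 libraries of a group agreed within sampling noise: the lowest chi-square per gene over 84 pairs was 13.9. CPM used TMM factors. Tests used edgeR 4.0.16 (R 4.3.3; robust quasi-likelihood fit, 1 mean per group over 28 libraries, filterByExpr), two-sided, with Benjamini-Hochberg adjustment over 12495 genes and a threshold of 0.05. Each adjusted p comes from this test unless another tool is named. The common biological coefficient of variation was 0.629. Alternatives were DESeq2 1.42.0, limma-voom (limma 3.58.1) with sample quality weights, RLE factors, other filters, fewer groups or libraries, a class term and a replicate term. Fits within each Xist class and sums with near-identical genes were added after the data were seen.

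The members, lists and rules were chosen with earlier results of these data known. All members are named. Of each pathway list, the rule takes up to 4 called genes of lowest p. Where none passed, the rule was to name the genes of lowest p as not passing. Those genes are left out here and counts are given instead. The 3 nearest genes were to be named for members past the threshold. As none passed, naming them for all members is a choice made after the values were seen. Predicted genes, pseudogenes, Rik genes and genes without a symbol were left out of that ranking. Intervals at 95% come from the fitted model. GENCODE M21 gave coordinates and lengths.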

Additional observations from a re-analysis of the deposited data

Results flagged for a closer look

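In 4 of 40 group-and-gene combinations the highest library stood apart, with a gap to the next library over 0.568 of the group's range. For normally distributed values chance gives about 1 in 20. That rate need not hold here, as CPM were not log-transformed and the combinations share libraries. Lgr5-low cystine replicate 7 stood apart for 3 members. It held 1424 CPM of Gsta1 (next 518), 82.4 CPM of Gsta4 (next 27.3) and 176 CPM of Gstm3 (next 90.9). This library also had the highest enterocyte marker sum without Fabp1, 6127 CPM, and the part of that in the 3 values was not tested. Lgr5-low control replicate 1 held 97.4 CPM of Gsta4, with 49.5 CPM in the next library. Its enterocyte marker sum was 3901 CPM.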

How the results depend on the processing

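Over 24 member log2 fold changes larger than their SE, 237 recomputed values kept side and call, 24 passed the threshold where the main value did not, and 4 changed sign, all 4 within the Xist-high class. Those were Mgst2 between populations on control diet (0.08), Gsta1 by diet in Lgr5-high cells (1.0), Gsta4 by diet in Lgr5-low cells (0.15) and Mgst2 for the difference of diet effects (-0.05). With fewer libraries per fit, the cause was not tested. Members called between populations on control diet, 0 in the main fit, numbered 3 with the class term, 2 within the Xist-high and 1 within the Xist-low class, 2 with DESeq2 and 3 with limma-voom; pathway genes called, 5 in the main fit, numbered 8, 9, 0, 9 and 10 in the same order and 3 with only the compared groups. On cystine diet the members called were 2 with the class term, 1 within the Xist-high and 2 within the Xist-low class and 2 with limma-voom, and the pathway genes called fell from 10 to 3 within the Xist-low class. For diet in Lgr5-high cells, 1 member and 2 pathway genes passed within the Xist-low class, and 1 pathway gene with DESeq2. Leaving out 1 library at a time gave 0 to 2 members and 3 to 7 pathway genes on control diet. On cystine diet it gave 0 to 1 and 5 to 12, and 0 elsewhere. Among all genes, those fits called from 124 of 12505 to 456 of 12960 on control diet. On cystine diet they called from 169 of 12499 to 381 of 12958. Among member values 369 kept side and call and 9 passed. Whether replicate numbers pair the libraries was not settled, as no label says so. Correlations of same-numbered Lgr5-high and Lgr5-low libraries ran from 0.073 to 0.239 on control diet (4 of 7 over 0.1) and from -0.083 to 0.17 on cystine diet. Each Lgr5-high library's median correlation with the other-numbered Lgr5-low libraries ran from -0.076 to -0.001 and from -0.047 to 0.018. On control diet 4 of 7 and on cystine diet 3 of 7 Lgr5-high libraries correlated best with their own number. Same-numbered libraries of a diet also shared their Xist class. With a replicate block 3 members passed on control diet (Gsta4, adjusted p = 0.0161, Gsto1, 0.0488, and Mgst3, 0.0162), where 409 of 12495 genes passed, and 2 on cystine diet (Gstt1, 0.0472, and Mgst3, 0.0213), where 453 genes passed, with 10 pathway genes on control diet. The median difference of diet effects over the genes each fit tested was 0.235 with DESeq2 and -0.112 with the block, against -0.03. DESeq2 tested 23955 genes here and the other 2 fits 12495, so its median is not over the same genes. Per length of the longest transcript, levels moved to 856 (Gstp1), 50.2 (Gstt1), 106 (Gsto1), 700 (Mgst1) and 56.6 (Mgst2) CPM per kb. Only the compared groups cannot be fitted apart for the difference of diet effects, which uses all 4. Levels of Gsta1 are limited by the spread between libraries rather than by depth, with at least 186 counts in each.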

Other observations

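The genes nearest to the remaining members by centred log2 CPM over the 28 libraries were chosen by the same measure. Predicted genes were again left out. Nearest to Mgst3 were Lgals4 (root mean square difference 0.16), Casp6 (0.19) and Lgals2 (0.20), against its own spread of 0.51. Nearest to Mgst1 were Prdx1 (0.14), Atox1 (0.17) and Atp5md (0.17), against 0.37, and nearest to Gstp1 were Copz1 (0.16), Ssr2 (0.18) and Atp5g1 (0.18), against 0.34. For Gstm3 they were Mlx (0.34), Dhrs1 (0.36) and Casp6 (0.40), against 0.61. Gsto1, Mgst2, Gstm1 and Gstt1 had their nearest genes at 0.21, 0.26, 0.28 and 0.33, close to their own spreads of 0.31, 0.40, 0.47 and 0.45, so the nearest genes describe these 4 little.

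The summed CPM of the 10 genes was 3512 ± 790 in Lgr5-high control, 3457 ± 431 in Lgr5-high cystine, 4752 ± 1927 in Lgr5-low control and 4814 ± 1382 in Lgr5-low cystine libraries (SD, n = 7).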
